A study of Homo sapiens with 2 samples.

Results

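The MYC, MAX and MXD network was examined in a line of human colorectal carcinoma cells, DLD-1, with a wild-type p53 transgene off or on. The network was defined as 10 genes: MYC, MYCL, MAX, MXD1, MXI1, MXD3, MXD4, MNT, MLX and PVT1. Every probe set annotated to 1 of them alone was taken, where a probe set is the group of oligonucleotides that reads out 1 transcript on the array. This gave 22 probe sets of 9 genes, out of 54613 probe sets that were not controls and 19775 named genes. No probe set was annotated to MXD4 alone. The cells of both conditions carried the same stably integrated tet-off construct, in which tetracycline keeps wild-type p53 silent. In the p53 off condition the cells were grown with tetracycline, and in the p53 on condition they had been without it for 9 h. Each condition was measured on 1 Affymetrix array, so there was no replicate, no test and no error between conditions, and each ratio describes these 2 arrays. The labels do not say whether the transfected line is 1 clone.

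MYC and its relative MYCL are transcription factors of growth and cell division that bind DNA only as dimers with MAX. MAX also dimerizes with MXD1, MXI1, MXD3, MXD4 and MNT, which recruit SIN3 corepressors to the same E-box sites and oppose MYC. MLX is the partner of the glucose-responsive factors MondoA and ChREBP and also pairs with some MXD proteins. In colorectal carcinoma MYC is a known output of Wnt signalling, and PVT1 is a long noncoding RNA gene that neighbours MYC.

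The values were linear MAS5 signals, scaled by the same trimmed mean of 500.1 on both arrays. Signals under 112.4, the median of all signals, were set to that floor. A ratio with 1 signal under it is a bound, written "at least", and a probe set with both signals under it was not measured. The p53 on array differed in its controls. There the ratio of the 3′ to the 5′ probe set was 7.29 for beta-actin and 1.77 for GAPDH, compared with 1.37 and 0.974 when p53 was off. The 18 hybridization spike-in probe sets were a median of 1.89 times brighter with p53 on. Scaling to them moved the median gene's log2 ratio from 0.0035 to -0.82, so every direction here is relative to the median gene. Of 12 colorectal epithelial markers 10 lay above the floor on at least 1 array, led by KRT18 with signals of 33328 and 57766. Of 10 leukocyte, 8 fibroblast and 7 endothelial markers, 4, 3 and 2 were under the floor on both arrays. The summed signals of these markers were 667.8, 609.1 and 409.7 with p53 off, and 1396, 985.4 and 849.1 with p53 on. The part of 3′ signal bias, of scaling and of these markers in the members' values was not tested.

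MYC was lower with p53 on, and its antagonists MXI1 and MXD1 were higher. Of the 22 probe sets 21 were measured, 4 of them with a bound. By the rule of at least 2-fold, 3 were higher (14.3%) and 4 lower (19.0%), against 14.0% higher and 11.9% lower among all 32151 measured probe sets. The share of higher probe sets was near the background, so the counts say little about the network as a set. The probe sets of 1 gene report on the same gene and are not independent. The 3 higher probe sets were those of MXI1 and MXD1, and the 4 lower ones those of MYC, MLX and MAX. By gene, on the brightest probe set and at 1.5-fold, 2 of 8 measured members lay higher and 2 lower, against 25.9% in each direction among 13915 measured genes.

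**Figure D1:**
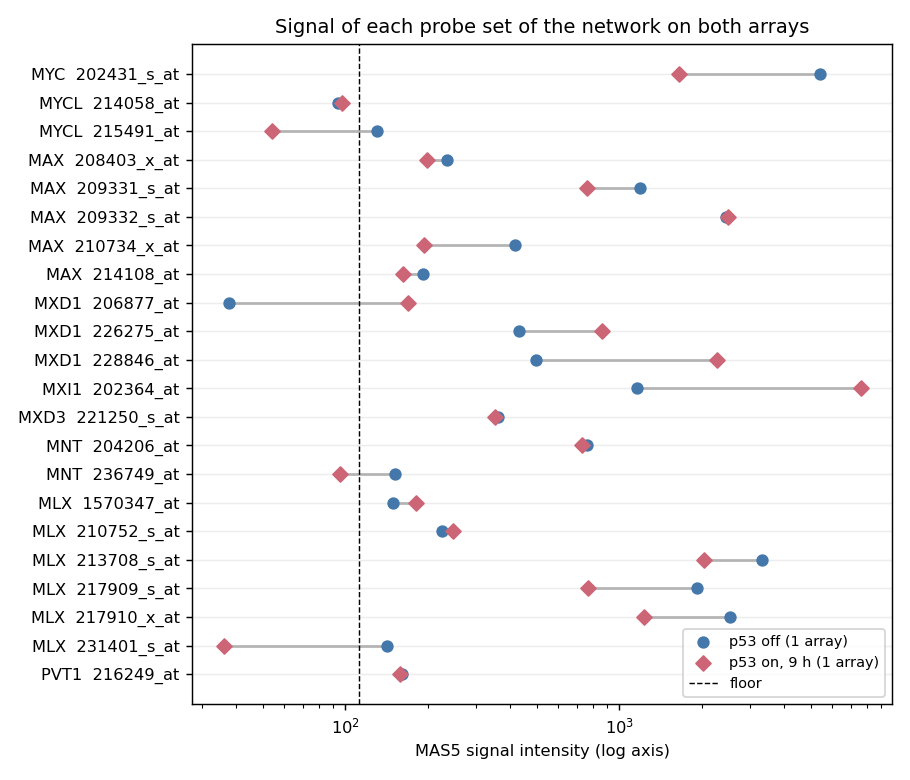
MAS5 signal intensity (log axis) of each of the 22 probe sets on the p53 off array (blue circles) and the p53 on array (red diamonds), 1 array each, with the floor of 112.4 as a dashed line. MYC drops from 5388 to 1649, while MXI1 rises from 1165 to 7609 and the MXD1 probe set 228846_at from 495.3 to 2267.

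MYC, the main proto-oncogene of the family, had 1 probe set (202431_s_at). Its signal was 5388 with p53 off and 1649 with p53 on, 3.27-fold lower (log2 ratio -1.71). Both signals were far above the floor. The ratio lay between -1.71 and -1.67 under the other floors and scalings, and was -2.63 with spike-in scaling, or -1.80 relative to the median gene of that scaling. Of all measured genes 3.23% had a ratio as low or lower. The suffix of this probe set marks sequence shared between transcripts, and there was no other MYC probe set to compare with. Fewer cells that express a gene and less of its RNA per cell cannot be told apart in these bulk samples.

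MYCL, a relative of MYC with narrower expression, was dim. Probe set 214058_at read 94.2 and 97.5, both under the floor, and was not measured. Probe set 215491_at read 130.2 and then 54.3, at least 1.16-fold lower. MYCL therefore gave no more than a bound close to no difference.

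MAX, the shared partner, had 5 measured probe sets that did not move together. The brightest, 209332_s_at, read 2462 and 2499, a log2 ratio of 0.022. The next, 209331_s_at, read 1192 and 764.0 and was 1.56-fold lower. Probe set 210734_x_at, whose name marks possible cross-hybridization, was 2.16-fold lower at 418.3 and 193.3. The other probe sets, 208403_x_at (235.3 and 199.4) and 214108_at (192.1 and 163.3), had log2 ratios of -0.24 and -0.23. Hence 4 of 5 probe sets were lower, and the brightest was level. Whether the probe sets read different MAX isoforms was not tested. The MAX probe sets spanned 1.14 on the log2 scale. Over all genes with several probe sets, the median distance between the brightest and another was 0.56.

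MLX, the dimerization partner of MondoA and ChREBP, had 6 measured probe sets. The 3 bright ones were all lower with p53 on. Probe set 213708_s_at read 3325 and 2042 (1.63-fold lower), 217910_x_at read 2530 and 1235 (2.05-fold lower), and 217909_s_at read 1931 and 768.8 (2.51-fold lower). The 3 dim ones were split. Probe sets 1570347_at (149.8 and 181.0) and 210752_s_at (225.9 and 248.4) had log2 ratios of 0.27 and 0.14, while 231401_s_at (142.4 and 36.2) was at least 1.27-fold lower. All 4 lower MLX probe sets carry a suffix for shared sequence, and so does 210752_s_at.

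MXI1, a MAX-binding repressor that antagonizes MYC, had the largest ratio of the network. The signal of its single probe set, 202364_at, was 1165 while the transgene was silent and 7609 once it was induced, 6.53-fold higher (log2 ratio 2.71). Of all measured genes 2.01% had a ratio as high or higher. With spike-in scaling the ratio was 1.79, and under the other settings it lay between 2.70 and 2.75.

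MXD1, a repressor of the same class that is known to rise as cells differentiate, was higher on each of its 3 probe sets. Probe set 228846_at read 495.3 and 2267 and was 4.58-fold higher (log2 ratio 2.19). Probe set 226275_at read 430.1 and 862.5 and was 2.01-fold higher, just inside the 2-fold rule. Probe set 206877_at was under the floor with p53 off, at 37.8 and 169.5, and was at least 1.51-fold higher. The direction was shared and the size was not, and spike-in scaling left 226275_at at 0.085 and 228846_at at 1.28.

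MXD3 and MNT showed no such difference. MXD3, the member of the class linked to S phase, read 360.2 and 352.8 on its single probe set (log2 ratio -0.030). MNT, the broadly expressed MAX-binding repressor, read 761.2 and 729.9 on 204206_at (log2 ratio -0.061). Its other probe set, 236749_at, read 151.9 and 95.4 and was at least 1.35-fold lower. Among the MAX-binding repressors with a probe set of their own, the higher signal was therefore seen for MXI1 and MXD1, and not for MXD3 or MNT.

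**Figure D2:**
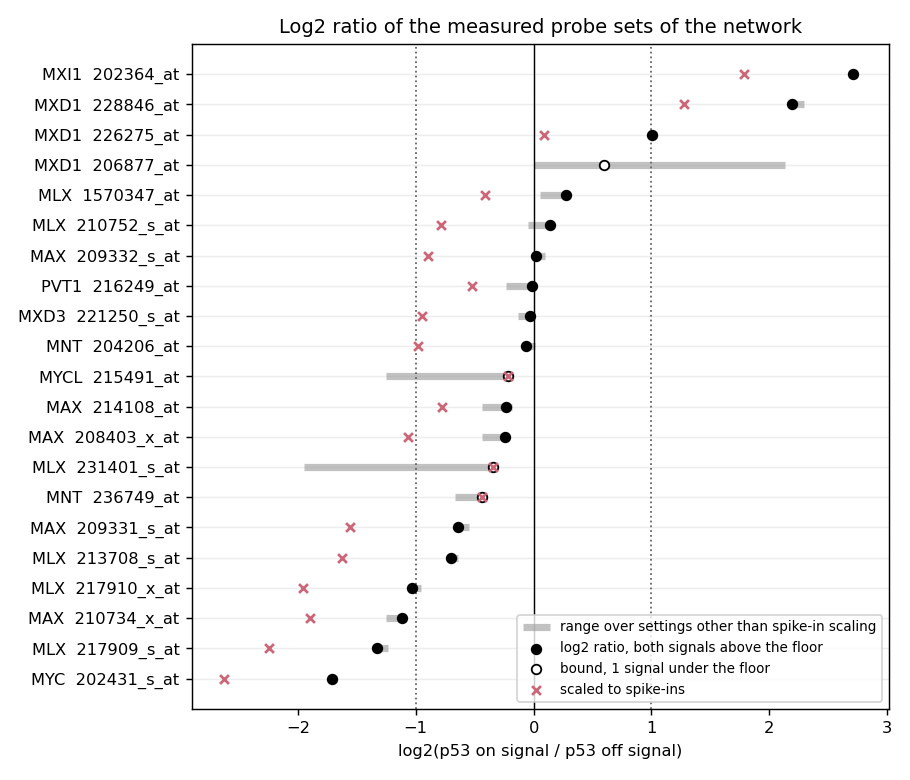
Log2 ratio of p53 on over p53 off for the 21 measured probe sets, sorted; filled points have both signals above the floor, open points are bounds, grey bars span the settings other than spike-in scaling, red crosses are spike-in scaling, and dotted lines mark 2-fold. MXI1 at 2.71 and MYC at -1.71 form the ends, and the probe sets of MAX and MLX spread from -1.33 to 0.27.

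A single factor between the arrays cancels when ratios are compared within them. The log2 ratio of MXI1 exceeded that of MYC by 4.42, a 21.3-fold shift of the MXI1 signal relative to the MYC signal. For MXD1 the shift was 3.90 on 228846_at and 2.71 on 226275_at, that is 15.0-fold and 6.55-fold. Over the 8 settings that held the MYC probe set these shifts ranged from 4.40 to 4.42, from 3.90 to 3.96 and from 2.69 to 2.72. The floors, centring and spike-in scaling cannot change such a difference when all signals lie above the floor, and a pseudocount barely can. Loess and quantile normalization alone could move it, so the narrow ranges say little about how stable these shifts are. Signal bias along the transcript is not a single factor and does not cancel here, and its part in these shifts was not tested. No protein was measured.

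PVT1 had 1 probe set of its own, 216249_at, which read 161.0 and 159.1 (log2 ratio -0.017). The neighbouring noncoding transcript was thus level on this dim probe set while MYC was lower. A further 4 probe sets are annotated to PVT1 together with the microRNA gene MIR1204 and were not counted. Of these, 1558290_a_at was bright, at 1242 and 2056 (1.66-fold higher, or a log2 ratio of -0.19 with spike-in scaling), and the other 3 were under the floor on both arrays. For MXD4, a MAX-binding repressor of resting cells, all 3 probe sets are annotated together with the microRNA gene MIR4800. The brightest of them, 212347_x_at, read 431.7 and 341.2 (log2 ratio -0.34), 212346_s_at read 114.2 and 55.4, and 210778_s_at was under the floor on both arrays.

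**Figure D3:**
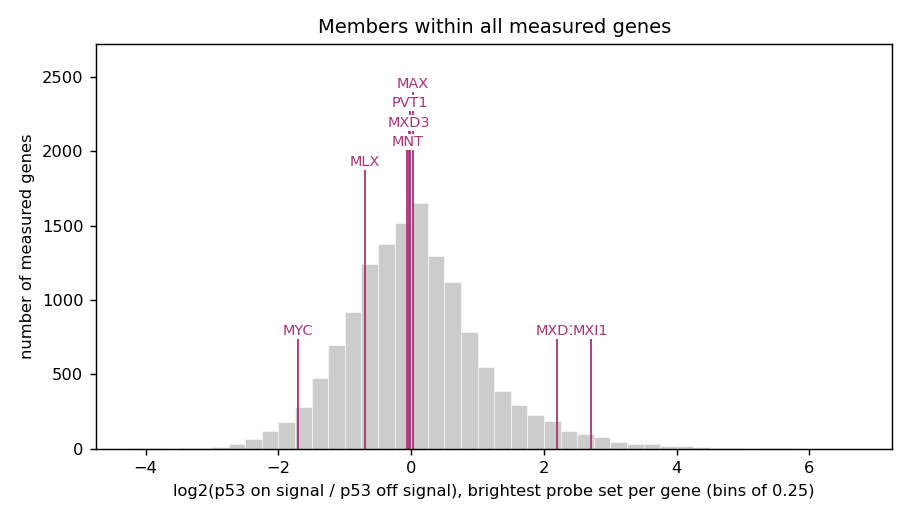
Number of measured genes by log2 ratio of p53 on over p53 off on the brightest probe set (grey bars, bins of 0.25), with the 8 measured members marked. MYC lies in the lower tail and MXD1 and MXI1 in the upper tail, while MNT, MXD3, PVT1 and MAX lie between -0.061 and 0.022.

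The network acts through the E-box, and promoter windows from RefSeq (GRCh38.p14) were searched for its canonical form, CACGTG, which reads the same on both strands. A window holds the 250 bases before and 50 after a transcription start. Of the 10 genes 8 had a window, and no window of MYC or PVT1 was available here. MNT, MLX and MXD4 held the motif in their window, and none of the windows of MYCL, MAX, MXD1, MXI1 and MXD3 did. By gene this was 3 of 8 (37.5%), against 8.77% of all 27305 genes with a window and 12.3% of the measured ones. A match is a description of the letters and not a bound site. The pieces of 80 bases below are shown because these members carry the motif of the network they belong to, with the E-box in capitals. The MNT piece is on the minus strand at chr17:2401211-2401290, the MLX piece on the plus strand at chr17:42567013-42567092, and the MXD4 piece on the minus strand at chr4:2262280-2262359.
MNT: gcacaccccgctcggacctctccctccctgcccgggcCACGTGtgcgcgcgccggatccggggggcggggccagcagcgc
MLX: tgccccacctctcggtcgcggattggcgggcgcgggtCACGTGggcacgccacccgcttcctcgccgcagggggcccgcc
MXD4: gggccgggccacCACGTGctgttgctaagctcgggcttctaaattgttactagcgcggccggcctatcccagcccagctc

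The E-box of MLX starts 50 bases before the transcription start, that of MNT 193 and that of MXD4 238 bases before it. MXI1 and MXD1, the members with the higher signal, had no canonical E-box in the searched windows, and no window of the 8 genes matched the half-site of the p53 consensus motif, which 8.06% of all genes with a window did. Sites outside these windows were not searched.

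The other 4 factors of the extended network had negative ratios on their brightest probe sets, of differing size. MYCN, a MYC relative, was dim and at least 1.43-fold lower at 160.7 and 78.6. MGA, a large MAX partner, read 315.7 and 291.8, but its 3 measured probe sets ranged from -0.69 to 1.17 on the log2 scale. MLXIP, the gene of MondoA, read 786.0 and 720.9, a log2 ratio of -0.12, and its other probe set gave 0.31. MLXIPL, the gene of ChREBP, was 1.64-fold lower at 239.2 and 145.9. Of these 4 genes 1 (25%) was at least 1.5-fold lower, near the 25.9% of all measured genes, and none was higher. Their median log2 ratio was -0.32.

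Coactivators and partners of MYC were more often lower than higher. Of 17 measured genes out of 19 listed, 9 (52.9%) were at least 1.5-fold lower and 2 (11.8%) higher, KAT2B and CCNT1, against 25.9% each way over all measured genes. The median was -0.67 against 0.0035 for all measured genes. CCNT1, a cyclin subunit that pairs with CDK9, read 2156 and 3343 on the brighter of 2 probe sets (1.55-fold higher), while the dimmer had a log2 ratio of -0.61. KAT5, the acetyltransferase TIP60, was 3.84-fold lower at 1384 and 360.3, and its 3 probe sets were all lower. RUVBL1, a chromatin-remodelling ATPase, was 2.75-fold lower at 3666 and 1332. CDK9, the kinase that releases paused polymerase, read 810.9 and 231.9 on the brightest probe set (3.50-fold lower), but another gave a log2 ratio of 0.21. KAT2B, the acetyltransferase PCAF, stood against them, at 683.6 and 3204 (4.69-fold higher).

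The corepressors that MXD proteins recruit were mixed. Of 14 measured genes out of 17, 4 were at least 1.5-fold higher (ING2, SAP30, ARID4B and ING1) and 5 lower (HDAC2, SUDS3, RBBP4, HDAC3 and SAP130), with a median of -0.15 (0.022 without probe sets marked for shared sequence). These are 28.6% and 35.7% of the list, against 25.9% each way over all measured genes, so the higher count was near the background. ING2, a chromatin reader of the SIN3 complex, was 4.58-fold higher at 1060 and 4859, with both probe sets higher. SAP30 and ARID4B, further SIN3 subunits, were 2.23-fold and 2.20-fold higher. HDAC2, a histone deacetylase, was 2.25-fold lower at 9775 and 4339. The scaffold genes SIN3A and SIN3B, named after their values were seen, had log2 ratios of -0.0037 and 0.027.

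Genes that set MYC protein turnover were also mixed, with 4 of 13 measured genes out of 15 at least 1.5-fold higher (FBXO32, GSK3B, HUWE1 and PPP2R5A) and 4 lower (USP28, CIP2A, TRPC4AP and USP36). FBXO32, an F-box protein reported to target MYC, read 20.7 and 1693 on its brightest probe set and was at least 15.1-fold higher. Its 4 measured probe sets ranged from 0.27 to 3.91 on the log2 scale. GSK3B, a kinase that marks MYC for degradation, was 2.29-fold higher, with all 5 of its probe sets higher. HUWE1, a large ubiquitin ligase, read 31103 and 69991 on the brightest probe set (2.25-fold higher), while another gave a log2 ratio of -1.0. USP28, a deubiquitinase that stabilizes MYC, was 2.09-fold lower at 460.9 and 220.7, with its 3 probe sets all lower. The median of this list was -0.27, and the 30.8% in each direction was near the 25.9% of all measured genes.

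Among regulators of MYC expression, 4 of 10 measured genes out of 12 were at least 1.5-fold lower (PUF60, TCF7L2, CTCF and ELAVL1) and 1 higher, that is 40% and 10%, against 25.9% each way over all measured genes. The median was -0.43. TCF7L2, the main Wnt effector in colon epithelium, was 2.24-fold lower at 7003 and 3120, and its 7 measured probe sets ranged from -2.09 to -1.16. PUF60, a repressor at an upstream element of MYC, was 2.59-fold lower, and CTCF, an insulator protein gene, 1.89-fold lower. PRDM1, a transcriptional repressor of MYC in lymphoid cells, was the higher one, 6.20-fold at 134.0 and 830.8, but another of its probe sets gave -1.09.

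Genes often reported as activated by MYC were mostly lower. This list, like the others, was chosen with earlier results of these data known. Of 66 genes measured out of 76, 38 (57.6%) were lower by at least 1.5-fold and 6 (9.09%) higher, against 25.9% each way over all measured genes. The higher calls of CCND2 and TERT were bounds, with the p53 off signal under the floor. With the floor at percentile 60, 4 were higher and 38 lower. Spike-in scaling divides every p53 on signal by 1.89 before the floor is applied. It gave 58 of 65 lower (89.2%) and none higher, against 59.2% lower and 9.49% higher over all genes. Relative to the median gene of that scaling, 39 (60%) were lower and 5 (7.69%) higher, against 28.3% and 27.7%. The median log2 ratio was -0.89. At least 2-fold lower were 26 of the 66 genes, against 1880 of all 13915 measured genes. PLK1, a mitotic kinase, FARSA, a subunit of phenylalanyl-tRNA synthetase, CAD, the first enzyme of pyrimidine synthesis, and BYSL, a factor of small ribosomal subunit maturation, had the largest differences. CAD read 3384 and 772.5 and was 4.38-fold lower, and BYSL read 2968 and 679.4 and was 4.37-fold lower. FARSA was at least 14.0-fold lower at 1578 and 73.3, and its other probe set was also lower, with a log2 ratio of -1.48. RCL1, a ribosomal RNA processing factor named after its value was seen, was the single gene at least 2-fold higher, at 520.3 and 1390. Without 5 genes of mitosis and replication, 33 of 61 were lower and 6 higher. Many of these genes follow cell division or ribosome production in general, so the list does not separate MYC from other regulators of them.

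Genes reported as repressed by MYC, a list chosen in the same way, lay on the other side. Of 17 measured genes out of 19, 10 (58.8%) passed 1.5-fold upwards and 2 (11.8%) downwards, CLU and CCND1. Over all measured genes the share was 25.9% each way. The higher calls of CDKN2B and GAS1 were bounds, with the p53 off signal under the floor. The median of the list was 0.92 (0.35 to 1.60 over all settings). At 0.92 it was itself the bound of CDKN2B, which read 8.34 and 212.1. NDRG1, a stress-response gene, CDKN1C and CDKN1A, inhibitors of cyclin-dependent kinases, and GADD45B, a growth arrest gene, had the largest ratios. CDKN1C read 165.2 and 1819 and was 11.0-fold higher, with each of its 4 probe sets higher. GADD45B read 779.0 and 3124 and was 4.01-fold higher, likewise on all 4 probe sets. Several members, such as CDKN1A, GADD45A and NDRG1, are also known p53 targets, so the list does not separate the actions of MYC and p53.

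Targets of MLX with MondoA or ChREBP did not move in a common direction. Of 11 measured genes out of 12, 2 were at least 1.5-fold higher (ARRDC3 and ACLY) and 3 lower (FASN, TXNIP and TKFC), with a median of -0.0022. These are 18.2% and 27.3% of the list, and the lower share was near the 25.9% each way of all measured genes. TXNIP, the glucose-responsive inhibitor of thioredoxin, was 2.51-fold lower at 1469 and 584.3, but its probe sets ranged from -1.45 to 0.22. FASN, the fatty acid synthase gene, was 2.59-fold lower at 2151 and 829.5, with both probe sets lower. ARRDC3, an arrestin-domain gene, was at least 2.57-fold higher at 78.6 and 288.9. ACLY, which makes cytosolic acetyl-CoA, read 8209 and 19065 on its brightest probe set (2.32-fold higher), but another gave a log2 ratio of -1.30.

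Genes near MYC and PVT1 on the same chromosome arm showed no shared direction. Of 9 measured genes out of 11, 3 were at least 1.5-fold higher (LRATD2, GSDMC and ASAP1) and 3 lower (SQLE, POU5F1B and CYRIB), with a median of -0.068. Each is 33.3% of a short list, against 25.9% each way over all measured genes. SQLE, a rate-limiting enzyme of cholesterol synthesis, was 3.89-fold lower at 3766 and 967.5, with its 3 probe sets all lower. The lower call of POU5F1B was a bound, at 187.6 and 103.4. The 3 measured probe sets of CYRIB ranged from -0.70 to 1.07 on the log2 scale. LRATD2 read 2108 and 10735 on its brightest probe set (5.09-fold higher), and its other probe set had a log2 ratio of 0.20. GSDMC, a gasdermin gene, read 161.1 and 357.7, and ASAP1, a regulator of ARF GTPases, 646.9 and 1221 with all 5 probe sets higher.

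**Figure D4:**
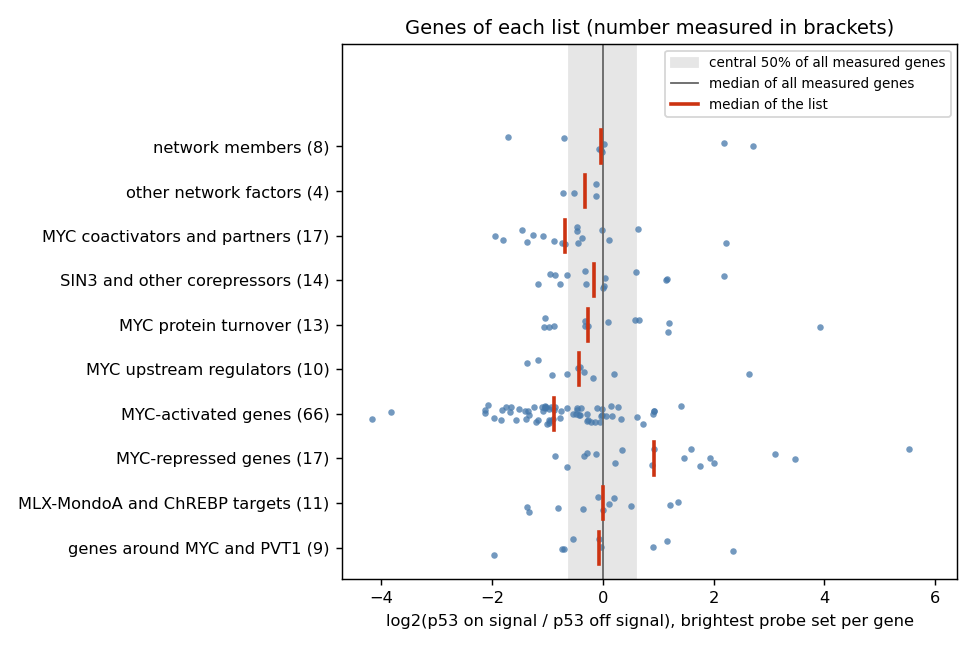
Log2 ratio of p53 on over p53 off for each measured gene of the lists (points; brightest probe set), with list medians (red) and the central 50% and median of all measured genes (grey). The medians of the MYC-activated and MYC-repressed genes are -0.89 and 0.92, and those of the network members, the MondoA and ChREBP targets and the genes around MYC lie near 0.

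With 2 arrays a gene's pattern is a single ratio, and likeness to MYC was taken as the distance between log2 ratios on the brightest probe set. Outside the lists, the 5 nearest genes were WDR5B, OGDH, NUP35, WBP11 and CTDSPL2, at -1.71 each. In all, 186 other genes lay within 0.1 of MYC, so this likeness is shared by many genes.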

How the data were processed

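Gene expression was measured in 2 samples of DLD-1 cells, 1 array per condition. The deposited values are signal intensities on a linear scale, 1 for each probe set, which the authors produced by the MAS5 algorithm, as given in the submitters' processing notes. The MAS5 version and parameters were not stated in the labels used here. Gene names came from the platform annotation held by GEO, with symbols updated through Entrez identifiers to RefSeq (GRCh38.p14). Of 54613 probe sets 41091 had 1 symbol, 1801 several and 11721 none, and 41037 of the 41091 were found in the RefSeq table. Those with several were not used, except where stated.

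The floor of 112.4 was percentile 50 of the non-control signals of both arrays. For each gene the probe set brightest on average was used. Calls are by size alone, 2-fold for probe sets and 1.5-fold for genes. All probe sets of the members are named, the 4 genes of each other list with the largest absolute ratio, and the 5 genes nearest to MYC. Genes outside this rule, including those that complete a count of 5 or fewer, were named after their values were seen. The members and lists were chosen with earlier results of these data known. The number of arrays limits the precision. The other settings were a floor at percentile 40 or 60, a pseudocount of 1 without a floor, ratios centred to the median gene, spike-in scaling, loess (span 0.3), quantile normalization, the mean over a gene's measured probe sets, leaving out probe sets marked for shared sequence (_s_at, _x_at), and leaving out 5 mitotic and replication genes. The transgene's own signal is not reported here. The procedure was tested on simulated data. Python 3.11.15, numpy 2.4.6, pandas 2.3.3, scipy 1.17.1 and matplotlib 3.10.9 were used.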

Additional observations from a re-analysis of the deposited data

Results flagged for a closer look

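Signals of the following kinds lay outside the comparison. The beta-actin control probe sets had a 3′ to 5′ signal ratio of 7.29 on the p53 on array, above the 1.37 of the p53 off array. The bright probe set annotated to both PVT1 and MIR1204, 1558290_a_at, was 1.66-fold higher with p53 on, while the probe set of PVT1 alone was level. With spike-in scaling its log2 ratio was -0.19 in place of 0.73.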

How the results depend on the processing

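MYC kept a negative log2 ratio, and MXI1 and MXD1 positive ones, under each setting that measured them. Without probe sets marked for shared sequence MYC has no value, 0 member probe sets were at least 2-fold lower and 0 member genes at least 1.5-fold lower, and the MYC-activated genes held 2 higher. With spike-in scaling, under which 59.2% of all genes were lower, 7 member probe sets and 5 member genes were lower. Relative to the median gene of that scaling, a comparison added after the data were seen, 2 member genes were lower. The MYC-activated genes had, as scaled, a median of -1.82, with 58 lower and 0 higher. Their number higher was 3 after quantile normalization and 2 after loess. With the mean over probe sets 1 member gene was lower. Of 75 counts and medians 64 stayed within 1.5 times the main count, or within 0.84 (the spread between probe sets of 1 gene, log2) of the main median. Of 152 single probe set ratios none reversed among those past 2-fold and 15 moved by more than that spread, 12 of them with spike-in scaling. Counting the probe sets shared with a microRNA gene, a setting chosen after the data were seen, left 3 higher and 4 lower. No paired analysis was possible because each condition has 1 array, and no array could be left out. Dim probe sets of MYCL, MNT, MLX and MXD1 gave bounds only.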

Other observations

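The canonical E-box was also counted over all measured genes with a promoter window. Of 1371 measured genes with the motif 29.8% were at least 1.5-fold lower and 24.3% higher (median log2 ratio -0.097). Of 9816 without it 26.7% were lower and 25.4% higher (median -0.017). Among genes reported as activated by MYC, 31 of the 54 measured genes with a window held the motif (57.4%), against 12.3% of all measured genes with a window. Within this list, 18 of the 31 genes with the motif and 15 of the 23 without it were lower, with medians of -0.95 and -1.02. These shares were not tested against each other.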
